A study of Homo sapiens with 192 samples.

Results

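Cancer stem cell surface and enzyme markers are genes whose products are used to sort or stain the tumour cells thought to renew a cancer, and 10 of them were followed here in colorectal cancer (CRC) cell lines. They were chosen by name, with earlier results of these data known, as PROM1, CD44, ALCAM, CD24, ALDH1A1, ALDH1A3, SOX9, BMI1, MSI1 and DCLK1. These are 10 of the 58243 genes listed in the count files, and 9 of them were among the 19387 genes with enough counts to be tested, DCLK1 being the exception. The markers did not move together between flat and three-dimensional culture. PROM1 was 3.31-fold higher in 3D in HT29 and 1.89-fold higher in 2D in LS513, ALDH1A1 was 2.65-fold higher in 3D in LS174T, and ALCAM and ALDH1A3 were 2.21-fold and 2.27-fold higher in 2D in HT29. Levels also differed widely between lines for most of the markers, with ALDH1A3 spanning 3237-fold between its highest and its lowest group mean. That lowest mean, of LS174T in 3D, rests on 7 to 12 counts per library. Its level is uncertain, since an antisense gene shares exonic bases with ALDH1A3.

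The human CRC lines HT29, LS513, HCT116 and LS174T are established epithelial tumour lines, and each was grown in 2D and as 3D layers, with 3 libraries per group and 24 libraries in 8 groups. The libraries of a group are replicates 1, 2 and 3, except that those of HT29 3D are numbered 1, 3 and 4 in the labels, and values are listed in that order. No genetic change or treatment is named for any of the groups. HCT116 was kept in McCoy medium and the other lines in DMEM, so the medium and the line cannot be told apart in any comparison of HCT116 with another line. The labels do not say whether the libraries of a group came from separate cultures, so the p-values measure only the spread between these libraries, which may be technical.

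The summed totals lay between 18723942 and 34277421 counts per library with a median of 30777613, and the lowest total was that of HT29 2D replicate 3. Levels are given as CPM, counts relative to library size after scaling by the TMM method (trimmed mean of M values, which makes libraries of unlike composition comparable). A gene was called detected in a group when all 3 libraries held more than 3 counts, a floor of 0.0875 to 0.160 CPM that covers counting error only. The lines were checked against colorectal epithelial markers, of which all 12 were above the floor in every library of HT29, LS513 and LS174T and 8 or 9 in HCT116. Among markers of other cell types, the fibroblast list summed to at most 22.1 CPM, most of it COL1A1 in HCT116, and COL1A2, PTPRC and CD3E had group means between 0 and 0.0229 CPM. The leukocyte list, which holds PTPRC and CD3E, nonetheless summed to 1327 to 1436 CPM in HT29 2D and 2437 to 2688 CPM in HT29 3D, nearly all of it LYZ, and 3 of its 5 tested markers rose there. Since the RNA came from whole cultures, fewer cells of a type and less RNA per cell cannot be told apart.

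In the colon, stem cells at the base of the crypt renew the epithelium, and tumours are thought to hold cells with part of that program. PROM1 (CD133), CD44, ALCAM (CD166) and CD24 sit in the plasma membrane and are used to sort such cells with antibodies. ALDH1A1 and ALDH1A3 are cytosolic dehydrogenases that turn retinaldehyde into retinoic acid, and their activity is read by a fluorescent substrate assay. SOX9 is a transcription factor of crypt progenitors, BMI1 a subunit of Polycomb repressive complex 1, MSI1 an RNA-binding protein and DCLK1 a microtubule-associated kinase found in tuft cells. SOX9, BMI1 and MSI1 are thus neither surface proteins nor enzymes, and the data are levels of messenger RNA, not of surface protein or enzyme activity.

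All 10 genes are protein coding, and their positions are from GENCODE 29 on GRCh38. PROM1 (ENSG00000007062) lies at chr4:15963076-16084378 on the minus strand, CD44 (ENSG00000026508) at chr11:35138870-35232402 on the plus strand, ALCAM (ENSG00000170017) at chr3:105366909-105576900 on the plus strand and CD24 (ENSG00000272398) at chr6:106969831-106975627 on the minus strand. ALDH1A1 (ENSG00000165092) lies at chr9:72900662-73080442 on the minus strand and ALDH1A3 (ENSG00000184254) at chr15:100877714-100916626 on the plus strand. SOX9 (ENSG00000125398) lies at chr17:72121020-72126420 on the plus strand, BMI1 (ENSG00000168283) at chr10:22321211-22331484 on the plus strand, MSI1 (ENSG00000135097) at chr12:120341330-120369180 on the minus strand and DCLK1 (ENSG00000133083) at chr13:35768652-36131306 on the minus strand. Counts are over the exons of a gene, so isoforms such as the CD44 variants were not separated. PROM1 shares 166 exonic bases with FGFBP2 on the same strand, ALDH1A3 shares 1585 exonic bases (27.5%) with the antisense gene AC015712.2, and BMI1 shares 1000 exonic bases (23.3%) with COMMD3-BMI1, a readthrough gene of its own strand. Counts of CD24 and BMI1 are also uncertain because near-identical pseudogenes exist and reads that aligned more than once were removed. CD24P1, CD24P2 and BMI1P1 were at 0 counts in every library.

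The promoters of ALDH1A1 and ALDH1A3 are shown because HCT116 differed from the other lines in which enzyme of this pair it held. HCT116 held ALDH1A3 and almost no ALDH1A1, and the other lines held ALDH1A1 at much higher levels than ALDH1A3. The windows run from 250 bases before to 50 bases after the start, are written 5′ to 3′ on the strand of the gene, and have the CG dinucleotides in capitals (RefSeq, GRCh38.p14). The ALDH1A1 window is chr9:72953004-72953303 on the minus strand and the ALDH1A3 window is chr15:100879581-100879880 on the plus strand.
ALDH1A1: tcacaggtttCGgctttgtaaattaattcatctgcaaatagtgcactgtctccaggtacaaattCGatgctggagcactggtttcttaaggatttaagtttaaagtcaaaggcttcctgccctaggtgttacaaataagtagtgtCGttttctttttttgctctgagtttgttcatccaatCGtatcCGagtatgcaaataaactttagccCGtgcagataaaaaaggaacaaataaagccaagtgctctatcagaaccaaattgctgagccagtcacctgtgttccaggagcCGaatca
ALDH1A3: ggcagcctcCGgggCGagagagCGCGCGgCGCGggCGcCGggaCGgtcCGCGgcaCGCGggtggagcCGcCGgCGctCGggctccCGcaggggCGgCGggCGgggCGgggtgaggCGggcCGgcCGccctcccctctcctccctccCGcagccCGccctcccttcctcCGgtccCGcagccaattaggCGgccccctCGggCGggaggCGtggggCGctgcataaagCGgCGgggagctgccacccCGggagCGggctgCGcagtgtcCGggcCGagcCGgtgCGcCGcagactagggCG
The ALDH1A1 window had 7 CG dinucleotides and a GC content of 40.3%, and 39.2% of the 34961 promoters in the same table had no more of them. The ALDH1A3 window had 46 and a GC content of 81.7%, and 97.6% of promoters had no more. The median promoter had 14 CG dinucleotides and a GC content of 58.7%. On either strand CCAAT was present in both windows and in 34.6% of all promoters, and TATAAA was in neither and in 11.5% of all promoters. Of the 10 genes, 8 had a promoter in the table.

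**Figure D1:**
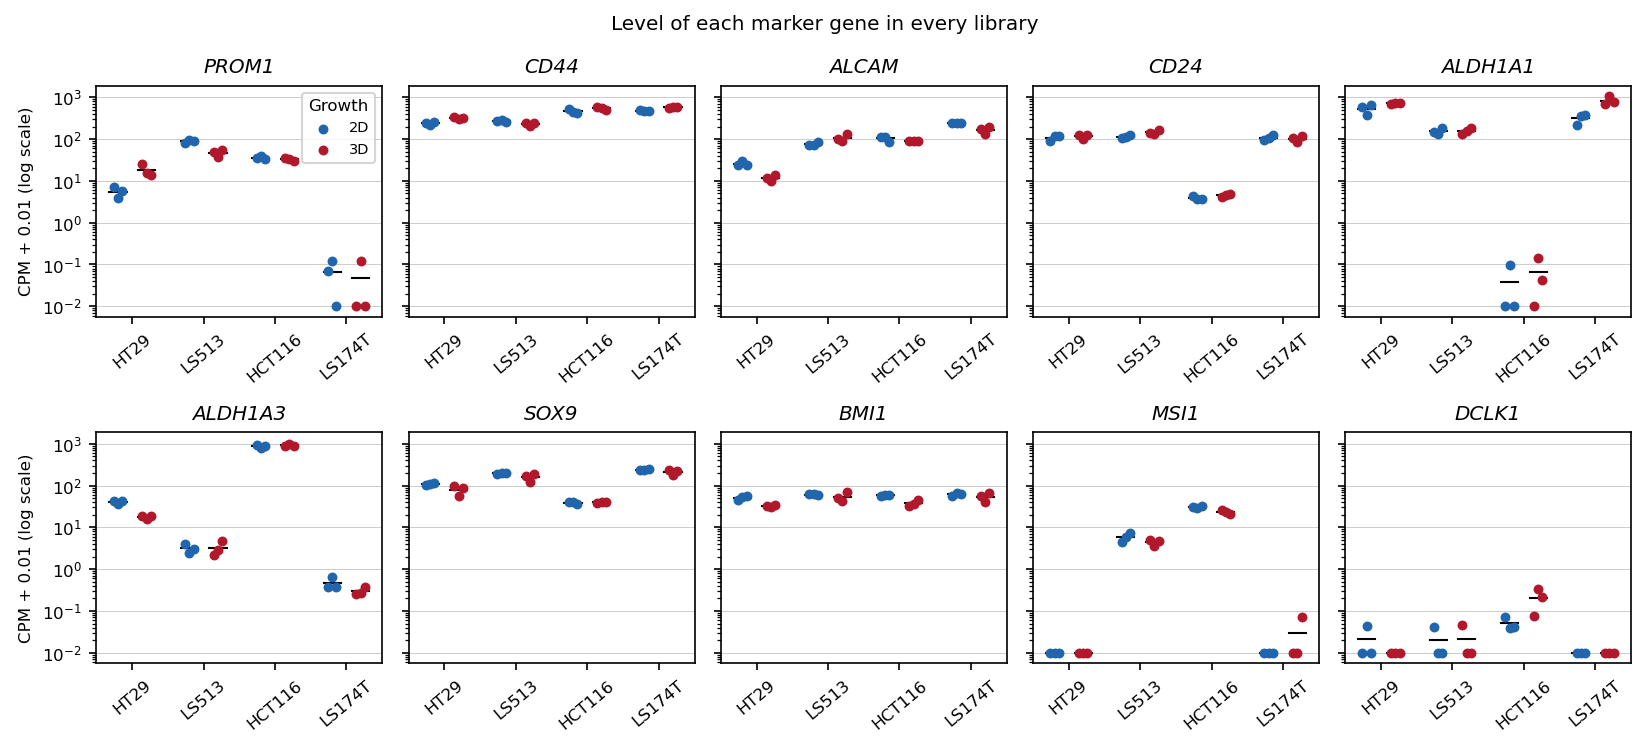
Level of each of the 10 markers in the 24 libraries, on a log axis of CPM plus 0.01, with 2D libraries in blue, 3D libraries in red and a black line at the mean of each group of 3. CD44 stayed between 206 and 598 CPM in every library, while ALDH1A1 was near 0 in HCT116 only, MSI1 was at or near 0 in HT29 and LS174T, and DCLK1 never rose above 0.327 CPM.

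In HT29, 6 of the 8 detected markers changed between 2D and 3D, 2 rising and 4 falling, beside 40.7% of all tested genes (21.1% higher and 19.6% lower in 3D). In LS513, 4 of 9 changed, 2 in each direction, beside 23.6% of all tested genes (13.7% higher and 9.9% lower). In HCT116, 1 of 8 changed and was lower in 3D, beside 29.1% (16.8% higher and 12.3% lower). In LS174T, 3 of 7 changed, 2 rising and 1 falling, beside 22.2% (13.1% higher and 9.15% lower). The percentages are over all tested genes, detected in the line or not, of which 9 were markers. A change was called at an adjusted p under 0.05 in edgeR's quasi-likelihood test with Benjamini-Hochberg adjustment over all tested genes, which gives every adjusted p below. The median log2 fold change of the detected markers was -0.18 in HT29 and in LS174T, -0.16 in LS513 and -0.02 in HCT116, where that of all tested genes was between 0.00 and 0.02. With the cutoffs of the study added, a log2 fold change under -0.5 or over 1.5, the counts were 4 markers in HT29 beside 17.4% of all tested genes, 1 in LS513 beside 8.03%, 1 in HCT116 beside 9.28% and 1 in LS174T beside 7.26%. No marker passed the test in the same direction in all 4 lines. The count for LS513 depended on 5 of its 6 libraries, dropping to 1 without 2D replicate 1 or 2D replicate 2 and to 2 without any of the 3D replicates. That for LS174T dropped to 1 without 3D replicate 2, and that for HCT116 rose to 2 without 2D replicate 1.

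The size of the growth effect was then compared between lines by an interaction test, which 17.1% of all tested genes passed. It was passed by 5 of the 9 tested markers, namely PROM1 (adjusted p = 1.88e-05), ALCAM (adjusted p = 4.89e-05), ALDH1A3 (adjusted p = 8.36e-04), CD44 (adjusted p = 0.00154) and ALDH1A1 (adjusted p = 0.0146). CD24 (adjusted p = 0.314), SOX9 (adjusted p = 0.351), BMI1 (adjusted p = 0.193) and MSI1 (adjusted p = 0.537) did not pass, so no difference in their growth effect between lines was shown. The result for ALDH1A1 missed the threshold without LS174T 2D replicate 1 or without LS174T 3D replicate 2 (adjusted p = 0.0521 in each case). BMI1 passed without LS174T 3D replicate 2 (adjusted p = 0.0316).

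**Figure D2:**
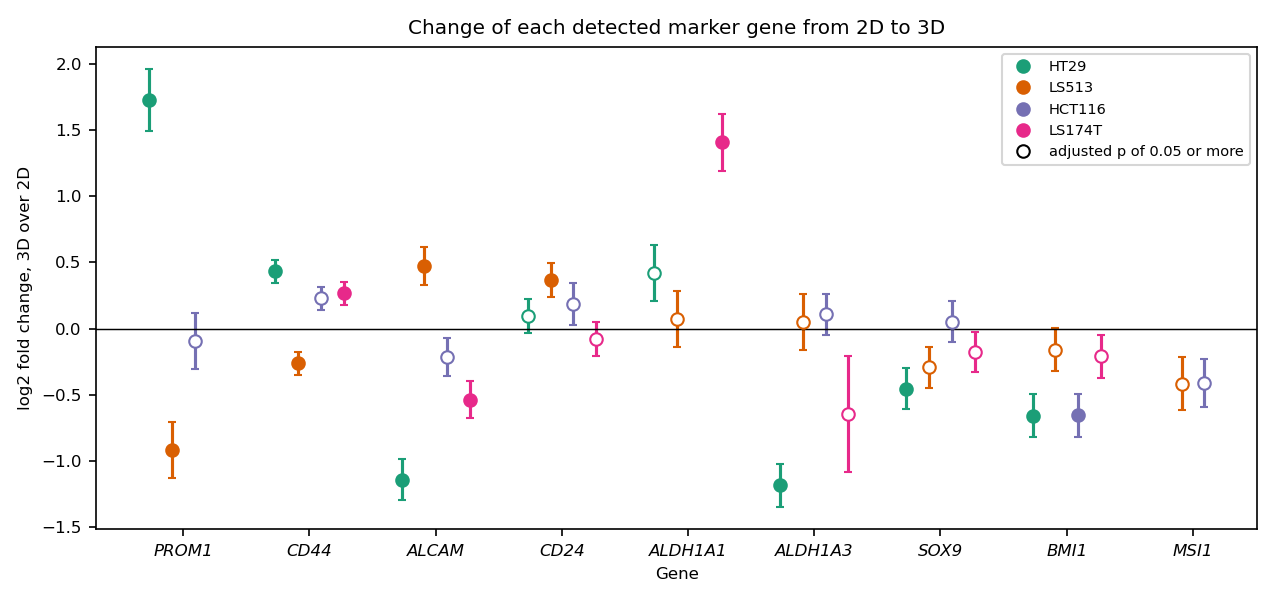
Log2 fold change from 2D to 3D of the 9 tested markers in each line where they were detected, with the standard error from edgeR as bars. Filled points passed an adjusted p of 0.05 and open points did not. PROM1 lies at 1.73 in HT29 and at -0.92 in LS513, ALDH1A1 at 1.41 in LS174T, and the points of BMI1 and MSI1 all lie below 0.

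PROM1, a cholesterol-binding glycoprotein of membrane protrusions, had the largest rise of any marker. Its 2D libraries in HT29 held 7.03, 3.82 and 5.75 CPM and its 3D libraries 25.2, 15.3 and 14.1 CPM. All 3D libraries lay above all 2D libraries, and the gene rose by 1.73 ± 0.24 on the log2 scale (SE, n = 3 per group, adjusted p = 5.9e-06). In LS513 the direction was opposite, with 81.5, 93.0 and 91.1 CPM in 2D and 48.6, 37.2 and 54.9 CPM in 3D. The groups again did not overlap, and the log2 fold change was -0.92 ± 0.21 (SE, n = 3 per group, adjusted p = 0.00254). In HCT116 the libraries overlapped at 35.4 ± 2.9 CPM in 2D and 33.1 ± 2.7 CPM in 3D (SD, n = 3 per group), and the log2 fold change of -0.10 did not pass the test (adjusted p = 0.792). LS174T held 0 to 4 counts per library, which is at or around the floor of 3 counts.

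The order of PROM1 over the lines was LS513, HCT116, HT29 and LS174T in both growth conditions, and each step between detected neighbours passed the test. LS513 was 2.50-fold above HCT116 in 2D (adjusted p = 6.88e-06) and 1.42-fold in 3D (adjusted p = 0.039). HCT116 was 6.41-fold above HT29 in 2D (adjusted p = 5.63e-10) and 1.81-fold in 3D (adjusted p = 0.00112). The lines thus lay closer together in 3D, since the highest of them fell and the lowest detected line rose. FGFBP2, which shares exonic bases with PROM1, held 5.01% to 8.02% as many counts as PROM1 in the lines where PROM1 was detected.

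CD44, the main receptor for hyaluronan and a target of Wnt signalling in the crypt, was detected in every group and had a narrow range for these markers, with 2.54-fold between its highest and lowest group mean. In HT29 the 2D libraries held 240, 224 and 258 CPM and the 3D libraries 343, 305 and 326 CPM. The groups did not overlap, and CD44 rose by 0.43 ± 0.09 on the log2 scale (SE, n = 3 per group, adjusted p = 4.75e-04). In LS513 it was lower in 3D, at 275, 292 and 257 CPM in 2D and 237, 206 and 244 CPM in 3D. This fall of -0.26 ± 0.09 passed the test with all libraries (SE, n = 3 per group, adjusted p = 0.033) and missed it without 2D replicate 1, 2D replicate 2, 3D replicate 1 or 3D replicate 2 (adjusted p = 0.0547 to 0.199). In LS174T it was higher in 3D, at 503, 470 and 478 CPM in 2D and 559, 598 and 589 CPM in 3D. The rise of 0.27 ± 0.09 (SE, n = 3 per group, adjusted p = 0.0318) was lost without any of the 2D libraries or without 3D replicate 2 (adjusted p = 0.0523 to 0.102). HCT116 had 465 ± 47 CPM in 2D and 545 ± 33 CPM in 3D (SD, n = 3 per group), a log2 fold change of 0.23 with libraries that overlapped (adjusted p = 0.0525). That difference passed the test without 2D replicate 1 (adjusted p = 0.0246). With all libraries it passed in DESeq2 (adjusted p = 0.0216) and in edgeR with the size factors of DESeq2 (adjusted p = 0.0447).

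In 2D the lines formed a higher and a lower pair for CD44. LS174T and HCT116 did not differ beyond their spread (1.04-fold, adjusted p = 0.579), nor did LS513 and HT29 (1.14-fold, adjusted p = 0.0643), while HCT116 was 1.69-fold above LS513 (adjusted p = 5.41e-08). In 3D LS174T and HCT116 again did not differ beyond their spread (1.07-fold, adjusted p = 0.343), and HT29 was 1.42-fold above LS513 (adjusted p = 2.67e-05).

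CD24, a small heavily glycosylated protein held in the membrane by a lipid anchor, was set apart by HCT116. The HCT116 libraries held 4.44, 3.71 and 3.72 CPM in 2D and 4.22, 4.47 and 4.81 CPM in 3D, from 116 to 147 counts each. In the other lines CD24 lay between 85.2 and 163 CPM. HT29, the next line in 2D, was 27.5-fold above HCT116 (adjusted p = 1.02e-17), and LS513, LS174T and HT29 did not differ beyond their spread in 2D (adjusted p = 0.668 and 1 for neighbours). In 3D LS513 was above HT29 by 1.27-fold (adjusted p = 0.0249) and above LS174T by 1.43-fold (adjusted p = 0.00128), HT29 and LS174T did not differ beyond their spread (1.13-fold, adjusted p = 0.236), and LS174T was 22.9-fold above HCT116 (adjusted p = 1.85e-17). Between growth conditions CD24 changed in LS513, from 104, 112 and 127 CPM in 2D to 144, 136 and 163 CPM in 3D. These libraries did not overlap, and CD24 was higher by 0.37 ± 0.13 on the log2 scale (SE, n = 3 per group, adjusted p = 0.0415). The call was lost without any of 5 of the 6 libraries, 2D replicate 3 being the exception (adjusted p = 0.0545 to 0.168). In HT29, HCT116 and LS174T the log2 fold changes of 0.10, 0.19 and -0.08 did not pass the test (adjusted p = 0.587, 0.416 and 0.698).

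The balance of CD44 to CD24, by which CD44-high and CD24-low cells are sorted in some tumours, was taken within each library per kilobase of exon, so that it needs no scaling between libraries. HCT116 had a log2 ratio of 5.17 ± 0.05 in 2D and 5.22 ± 0.18 in 3D (SD, n = 3 per group). LS174T had 0.47 ± 0.22 and 0.82 ± 0.26, HT29 -0.54 ± 0.22 and -0.21 ± 0.13, and LS513 -0.43 ± 0.21 and -1.06 ± 0.07 (SD, n = 3 per group). The ratio was thus far higher in HCT116 than in the other lines, whose group means lay between -1.06 and 0.82. LS513 was the line whose 2D and 3D libraries did not overlap, and its log2 ratio was lower in 3D by -0.63 (two-sided exact permutation p = 0.1). With 3 libraries against 3 no exact test can go below 0.1. The other lines gave p-values of 0.2 in HT29, 0.7 in HCT116 and 0.2 in LS174T in the same exact permutation test.

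**Figure D3:**
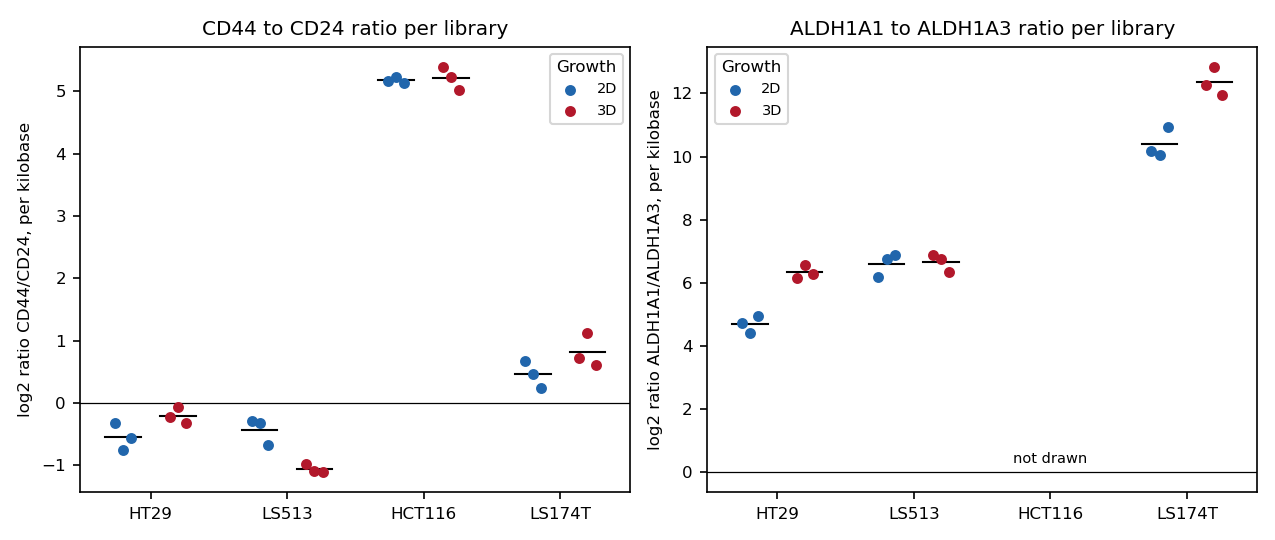
Log2 ratio of CD44 to CD24 (left) and of ALDH1A1 to ALDH1A3 (right) per kilobase in each library, with 2D in blue, 3D in red and a black line at the mean of 3. HCT116 lies above 5 on the left and is not drawn on the right, where its ALDH1A1 counts were 0 to 4. On the right the 3D libraries of HT29 and LS174T lie above their 2D libraries.

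ALCAM, an adhesion molecule of the immunoglobulin family that binds itself and CD6, moved in 3 lines and in both directions. In HT29 it fell from 23.8 to 29.5 CPM in the 2D libraries to 11.5, 9.78 and 13.7 CPM in 3D. The groups were well apart, with a log2 fold change of -1.14 ± 0.15 (SE, n = 3 per group, adjusted p = 4.99e-06). In LS174T, the line with the highest level, it fell from 246, 243 and 242 CPM to 175, 136 and 192 CPM. The log2 fold change was -0.54 ± 0.14 (SE, n = 3 per group, adjusted p = 0.00961), and without 3D replicate 2, the lowest library, it was -0.40 and missed the threshold (adjusted p = 0.0741). In LS513 it was higher in 3D, at 70.6, 74.0 and 86.1 CPM in 2D and 101, 88.4 and 130 CPM in 3D. That rise of 0.47 ± 0.14 passed the test (SE, n = 3 per group, adjusted p = 0.0186) and missed it without 2D replicate 1, 2D replicate 2 or 3D replicate 3 (adjusted p = 0.0721 to 0.137). HCT116 overlapped at 104 ± 14 CPM in 2D and 89.3 ± 1.0 CPM in 3D (SD, n = 3 per group, adjusted p = 0.279).

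The lines were ordered for ALCAM as LS174T, HCT116, LS513 and HT29 in 2D, with 2.35-fold, 1.35-fold and 2.98-fold between neighbours (adjusted p = 6.1e-08, 0.0102 and 2.17e-09). In 3D LS513 stood above HCT116 by 1.19-fold, which did not pass the test (adjusted p = 0.119), and HCT116 stood 7.65-fold above HT29 (adjusted p = 5.78e-14). The whole span between group means was 20.8-fold, from LS174T in 2D to HT29 in 3D.

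ALDH1A1, the best known of the retinaldehyde dehydrogenases read in stem cell assays, was abundant in 3 lines and at or around the floor in HCT116. In LS174T the 2D libraries held 224, 353 and 369 CPM and the 3D libraries 677, 1048 and 784 CPM. All 3D libraries lay above all 2D libraries, and the gene rose by 1.41 ± 0.22 on the log2 scale (SE, n = 3 per group, adjusted p = 7.89e-05). In HT29 the 2D libraries held 572, 372 and 656 CPM and the 3D libraries 676, 745 and 717 CPM. The 3D libraries were all above the 2D libraries here too, but the 2D libraries were spread widely and the difference of 0.42 ± 0.21 did not pass the test (SE, n = 3 per group, adjusted p = 0.12). It passed without 2D replicate 3 (log2 fold change 0.62, adjusted p = 0.0449) and without the filter on low counts (adjusted p = 3.58e-04). LS513 overlapped at 153 ± 25 CPM in 2D and 161 ± 29 CPM in 3D (SD, n = 3 per group, adjusted p = 0.889). HCT116 held 0, 3 and 0 counts in 2D and 0, 4 and 1 counts in 3D, and no fold change is given for it.

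The order of ALDH1A1 was HT29, LS174T, LS513 and HCT116 in 2D, HT29 being 1.69-fold above LS174T (adjusted p = 0.0033) and LS174T 2.06-fold above LS513 (adjusted p = 2.01e-04). In 3D LS174T and HT29 did not differ beyond their spread (1.17-fold, adjusted p = 0.348), and HT29 was 4.43-fold above LS513 (adjusted p = 1.01e-08).

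ALDH1A3, the enzyme of the same reaction that is encoded on chromosome 15, was highest in HCT116, where ALDH1A1 was at or around the floor. HCT116 held 932, 806 and 870 CPM in 2D and 893, 1019 and 900 CPM in 3D, which overlapped (log2 fold change 0.11, adjusted p = 0.649). HT29 came next and was the line in which the gene changed, from 43.8, 35.5 and 43.1 CPM in 2D to 19.1, 16.0 and 18.6 CPM in 3D. The groups did not overlap, and the fall was -1.18 ± 0.16 on the log2 scale (SE, n = 3 per group, adjusted p = 7.34e-06). LS513 held 2.22 to 4.71 CPM and LS174T 0.245 to 0.654 CPM, from 7 to 23 counts, and neither changed between growth conditions by the test (adjusted p = 0.941 and 0.301). In 2D the steps between neighbours were 21.3-fold from HCT116 to HT29, 12.8-fold from HT29 to LS513 and 6.89-fold from LS513 to LS174T (adjusted p = 3.54e-16, 4.13e-14 and 7.93e-09). In 3D the first of these steps was 52.2-fold (adjusted p = 1.1e-17). The antisense gene AC015712.2 held 121 to 238 counts in LS174T and 84 to 194 in LS513, where ALDH1A3 was low, and 212 to 401 in HCT116, 0.940% and 1.18% of the ALDH1A3 counts in 2D and 3D there. In HT29, where ALDH1A3 fell, AC015712.2 held 96 to 139 counts, which was 11.4% of the ALDH1A3 counts in 2D and 21.1% in 3D. The kit keeps the strand, but the strand setting used in counting is not given in the sources used here, so the low levels of ALDH1A3 in LS174T and LS513 are uncertain and its counts in HT29 may hold antisense reads.

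Within a library, the log2 ratio of ALDH1A1 to ALDH1A3 per kilobase went in HT29 from 4.69 ± 0.27 in 2D to 6.33 ± 0.20 in 3D and in LS174T from 10.4 ± 0.5 to 12.4 ± 0.4 (SD, n = 3 per group). In both lines the 3D libraries lay above the 2D libraries, which gave the smallest p that 3 against 3 allows (two-sided exact permutation p = 0.1). LS513 had 6.61 ± 0.37 and 6.67 ± 0.29 (SD, n = 3 per group, exact permutation p = 0.7). The ratio in LS174T rests on the 7 to 23 counts of ALDH1A3 in its libraries.

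Seen against the 19 human aldehyde dehydrogenase genes, these enzymes made up much of the family in 3 of the lines. Levels were compared per kilobase, as a share of the summed CPM per kilobase of all 19. ALDH1A1 took 45.7% ± 5.7 in HT29 2D and 51.2% ± 2.3 in HT29 3D, and 29.5% ± 4.9 in LS174T 2D and 52.0% ± 4.0 in LS174T 3D (SD, n = 3 per group). ALDH1A3 took 48.8% ± 1.8 in HCT116 2D and 50.6% ± 2.2 in HCT116 3D (SD, n = 3 per group). Each of these was the most abundant gene of the family in its line. LS513 differed, with ALDH3A1, a cytosolic aldehyde dehydrogenase abundant in the cornea, first at 21.7% ± 0.8 in 2D and 18.6% ± 2.6 in 3D, and ALDH1A1 at 12.1% ± 1.7 and 13.9% ± 2.2 (SD, n = 3 per group).

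**Figure D4:**
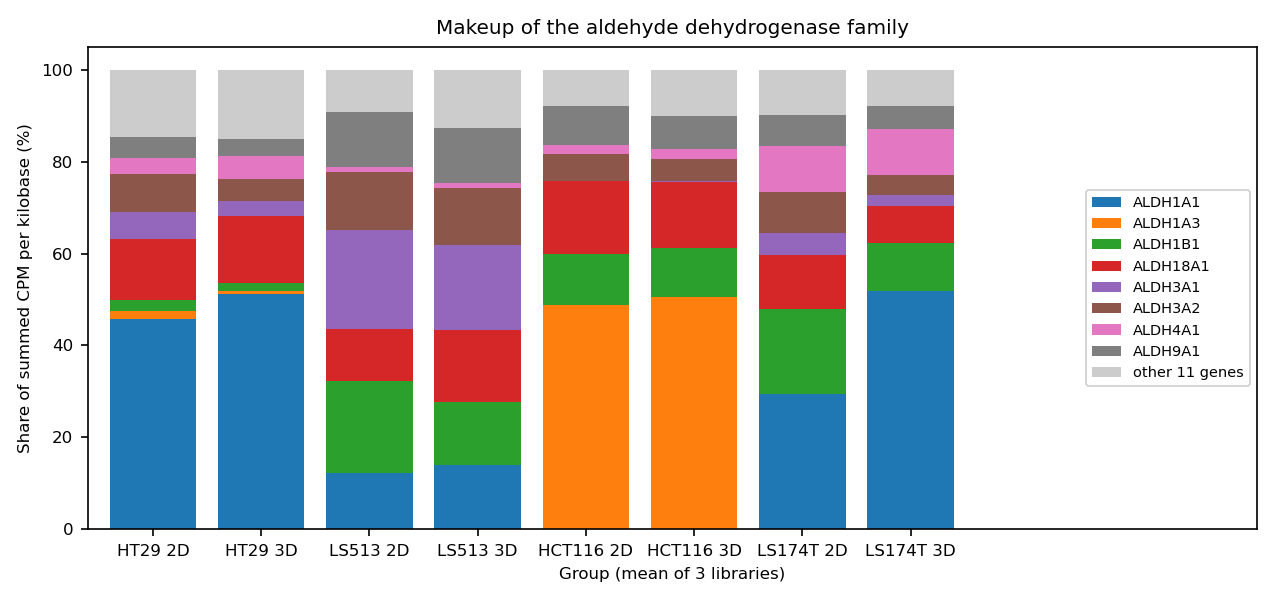
Makeup of the aldehyde dehydrogenase family in the 8 groups, as the share of summed CPM per kilobase over 19 genes (mean of 3 libraries), with 8 genes in colour and the other 11 in grey. ALDH1A1 fills 29.5% to 52.0% of the bar in HT29 and LS174T, ALDH1A3 fills 48.8% and 50.6% in HCT116, and ALDH1A1 fills at most 13.9% in LS513.

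SOX9, a transcription factor of progenitor and Paneth cells, was present in every group between 36.2 and 248 CPM. In HT29 the 2D libraries held 105, 108 and 116 CPM and the 3D libraries 97.8, 55.8 and 85.8 CPM. The 3D libraries all lay below the 2D libraries, at a log2 fold change of -0.45 ± 0.15 (SE, n = 3 per group, adjusted p = 0.0212). This call rested on single libraries, since without 3D replicate 3 the log2 fold change was -0.20 (adjusted p = 0.264) and without any of the 2D libraries it was also lost (adjusted p = 0.0645 to 0.099). In LS174T the 3D libraries (231, 183 and 230 CPM) also lay below the 2D libraries (238, 242 and 248 CPM), without passing the test (adjusted p = 0.426). LS513 and HCT116 overlapped (adjusted p = 0.175 and 0.863). SOX9 was highest in LS174T and LS513, which did not differ beyond their spread in 2D (1.22-fold, adjusted p = 0.113), followed by HT29, 1.82-fold below LS513 (adjusted p = 3.43e-05), and HCT116, 2.83-fold below HT29 (adjusted p = 1.12e-08). The order was the same in 3D, where LS174T was 1.32-fold above LS513 (adjusted p = 0.0254), LS513 2.03-fold above HT29 (adjusted p = 3.69e-06) and HT29 1.99-fold above HCT116 (adjusted p = 5.25e-06).

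BMI1, the Polycomb subunit that stimulates histone H2A ubiquitination and represses CDKN2A, had the most even level of the markers. Its 2D group means lay between 51.2 and 62.0 CPM, and BMI1 was the only one of the 9 tested markers that did not differ between lines in 2D (adjusted p = 0.33), where 91.7% of all tested genes did. In HT29 it fell from 45.8, 52.6 and 55.2 CPM to 32.6, 30.1 and 34.6 CPM, and in HCT116 from 57.4, 61.2 and 59.9 CPM to 32.5, 36.1 and 44.9 CPM. Neither pair of groups overlapped, and the log2 fold changes were -0.66 ± 0.16 in HT29 (SE, n = 3 per group, adjusted p = 0.00276) and -0.65 ± 0.16 in HCT116 (SE, n = 3 per group, adjusted p = 0.00414). In LS513 and LS174T the libraries overlapped, with log2 fold changes of -0.16 and -0.21 (adjusted p = 0.526 and 0.373). In 3D all 9 tested markers differed between lines, again beside 91.7% of all tested genes, and for BMI1 (adjusted p = 2.1e-04) LS513 and LS174T lay above HCT116 and HT29, with 1.42-fold between LS174T and HCT116 (adjusted p = 0.00882).

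Reads of BMI1 and COMMD3-BMI1 can fall on the same exons, and COMMD3-BMI1 held 94.0% to 135% as many counts as BMI1 over the groups. COMMD3-BMI1 itself held 47.2 CPM in 2D and 43.8 CPM in 3D in HT29, and 62.6 and 51.2 CPM in HCT116. Its 2D and 3D libraries overlapped in both lines. With both counts added, the log2 fold change was -0.37 in HT29 (adjusted p = 0.0251) and -0.45 in HCT116 (adjusted p = 0.00949), so both calls held, with a smaller change in both lines. The sum cannot show how reads on the shared exons were counted, since the overlap option is not given.

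MSI1, which binds messenger RNAs such as that of NUMB and represses their translation, was detected in HCT116 and LS513. HCT116 held 31.5, 29.1 and 32.8 CPM in 2D and 25.6, 23.7 and 20.9 CPM in 3D. These groups did not overlap, but the log2 fold change of -0.41 ± 0.18 did not pass the test (SE, n = 3 per group, adjusted p = 0.099). It passed when only the 6 HCT116 libraries were fitted (adjusted p = 0.0177). LS513 held 4.50, 5.83 and 7.32 CPM in 2D and 4.93, 3.55 and 4.75 CPM in 3D, which overlapped (adjusted p = 0.149). HCT116 was above LS513 by 5.29-fold in 2D and 5.30-fold in 3D (adjusted p = 3.89e-09 and 5.06e-09). MSI1 was at 0 counts in all 6 HT29 libraries and in 5 of the 6 LS174T libraries, the last holding 2 counts.

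DCLK1 was not detected in any group. Its 24 libraries held 25 counts in all, of which HCT116 held 2, 1 and 1 in 2D and 2, 10 and 6 in 3D, so that 2 of the HCT116 3D libraries were above the floor of 3 counts. LS174T held none and no library of HT29 or LS513 held more than 1. The level was too low for the test across genes, and no fold change is given. DCLK2, a paralog, was at 1.82 and 1.92 CPM in HCT116 2D and 3D and at most 0.0121 CPM in the other groups.

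Genes of the same pathways were taken from lists chosen with earlier results of these data known. They are given as counts of tested genes beside the shares of all tested genes. Those shares were 21.1% higher and 19.6% lower in 3D in HT29, and 13.7% and 9.9% in LS513. In HCT116 they were 16.8% and 12.3%, and in LS174T 13.1% and 9.15%. In the aldehyde dehydrogenase family, which includes ALDH1A1 and ALDH1A3, 8 of 19 rose and 3 fell in HT29, 3 rose and 2 fell in LS513, 5 rose and none fell in HCT116, and 5 rose and 2 fell in LS174T. In HCT116 2 rose without 2D replicate 2 and 3 without 2D replicate 1, 3D replicate 1 or 3D replicate 2, and in LS174T 3 rose without 2D replicate 1 or 3D replicate 2. The risers in HCT116 include ALDH1L1, at 0.0607 CPM in 2D and 0.230 CPM in 3D (adjusted p = 0.0379), from 2 to 13 counts per library. ALDH2, the mitochondrial enzyme of ethanol metabolism, was higher in 3D in all 4 lines, with a log2 fold change of 1.03 in HT29 (adjusted p = 7.77e-07), 0.48 in LS513 (adjusted p = 0.00415), 0.38 in HCT116 (adjusted p = 0.0206) and 0.41 in LS174T (adjusted p = 0.0157). ALDH2 was singled out after its values were seen, as were ALDH1L1, CDKN2A and, in the lists that follow, any line given for a gene beside the line of its largest change. Among called genes of at least 1 CPM in the higher group, ALDH3B2 rose most in HT29, from 0.811 to 16.6 CPM (adjusted p = 7.98e-08), and its relative ALDH3B1 rose most in LS513, with 7.83 CPM in 2D and 14.9 CPM in 3D (adjusted p = 1.13e-04), and in HCT116, from 27.6 to 60.6 CPM (adjusted p = 3.88e-06). ALDH1B1, a mitochondrial paralog of ALDH1A1, went from 280 down to 175 CPM in LS513 (adjusted p = 4.67e-06) and from 216 down to 181 CPM in LS174T (adjusted p = 0.037). ALDH1A2, the third retinaldehyde dehydrogenase, rose in HCT116 from 0.0884 CPM, near the floor, to 0.661 CPM (adjusted p = 0.00149), and was lower than 0.661 CPM in every other group.

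Among 16 tested genes of retinoic acid synthesis, binding and reception, 5 rose and 2 fell in HT29, 6 rose and none fell in LS513, 5 rose and 2 fell in HCT116, and 5 rose and none fell in LS174T. Over all tested genes 21.1%, 13.7%, 16.8% and 13.1% rose in these lines, and 19.6%, 9.9%, 12.3% and 9.15% fell. The count in HCT116 was 2 rising without 2D replicate 2 and 3 without 2D replicate 1, 3D replicate 1 or 3D replicate 2. STRA6, the cell surface receptor that takes up retinol, went from 21.4 to 59.0 CPM in HT29 (log2 fold change 1.46, adjusted p = 2.06e-05). DHRS9, a retinol dehydrogenase, went from 11.5 to 59.5 CPM in LS513 (log2 fold change 2.37, adjusted p = 4.48e-05). CRABP2, which carries retinoic acid to the nucleus, went from 176 to 329 CPM in HCT116 (log2 fold change 0.90, adjusted p = 3.57e-05). CYP26B1, which degrades retinoic acid, went from 0.419 to 2.13 CPM in LS174T (log2 fold change 2.34, adjusted p = 1.13e-05) and fell from 19.2 to 11.1 CPM in HCT116 (log2 fold change -0.80, adjusted p = 0.00548).

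Of 16 tested CD44 ligands, linkers and splicing regulators, 3 rose and 6 fell in HT29, 3 rose and 1 fell in LS513, 3 rose and none fell in HCT116, and none rose and 3 fell in LS174T. Over all tested genes 21.1%, 13.7%, 16.8% and 13.1% rose in these lines, and 19.6%, 9.9%, 12.3% and 9.15% fell. In LS174T 1 fell without 2D replicate 2, 2D replicate 3 or 3D replicate 2, and 5 fell without 3D replicate 3. HYAL1, a hyaluronan-degrading enzyme, had the largest change among called genes of at least 1 CPM in HT29 (1.68 to 4.67 CPM, adjusted p = 7.35e-05), LS513 (0.190 to 1.33 CPM, adjusted p = 5.22e-06) and HCT116 (1.54 to 7.41 CPM, adjusted p = 3.71e-07). MSN, the moesin that links CD44 to actin, fell in LS174T from 110 to 55.0 CPM (adjusted p = 1.43e-04) and in HT29 from 960 to 526 CPM (adjusted p = 1.65e-04).

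Among 5 tested relatives and partners of PROM1, ALCAM, CD24 and DCLK1, 1 rose and 1 fell in HT29, 2 rose in HCT116, and none passed in LS513 or LS174T. Over all tested genes 21.1% rose and 19.6% fell in HT29, and 16.8% rose and 12.3% fell in HCT116. PROM2, the paralog of PROM1, rose in HT29 from 160 to 221 CPM (adjusted p = 0.0137) and in HCT116 from 23.8 to 33.7 CPM (adjusted p = 0.015). In LS513, where PROM1 fell, PROM2 was at 7.21 CPM in 2D and 5.44 CPM in 3D (adjusted p = 0.0935). L1CAM, a neural adhesion molecule that binds CD24, rose in HCT116 from 9.27 to 21.0 CPM (adjusted p = 2.15e-04). DCLK3 had a group mean of 0 CPM in every group.

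Of 21 tested Polycomb partners of BMI1, 2 rose and 9 fell in HT29, 1 rose and 5 fell in LS513, 3 rose and 7 fell in HCT116, and 2 rose and 2 fell in LS174T. Over all tested genes 21.1%, 13.7%, 16.8% and 13.1% rose in these lines, and 19.6%, 9.9%, 12.3% and 9.15% fell. Single libraries moved the Polycomb counts, with 5 falling in HT29 without 2D replicate 3, and in LS513 1 falling without 2D replicate 2, 3D replicate 1 or 3D replicate 2, 2 without 2D replicate 1 and 3 without 2D replicate 3. In HCT116 none rose without 2D replicate 1, 2D replicate 2 or 3D replicate 1, and 1 rose without 3D replicate 2. The median log2 fold change of the Polycomb partners was -0.16 in HCT116, -0.15 in HT29, -0.12 in LS513 and -0.04 in LS174T. Neither LS513 nor LS174T passed the test for BMI1 itself. PHC3, a Polyhomeotic subunit, fell in HT29 from 55.8 to 27.8 CPM (adjusted p = 0.00113) and in LS174T from 36.1 to 20.9 CPM (adjusted p = 0.0161), the latter being lost without 2D replicate 3 or 3D replicate 2 (adjusted p = 0.0508 and 0.123). SUZ12, a core subunit of Polycomb repressive complex 2, fell in HCT116 from 86.5 to 55.6 CPM (adjusted p = 0.00832). PHC1 fell in LS513 from 2.52 to 1.56 CPM (adjusted p = 0.0322), a call that was lost without any 1 of the 6 libraries (adjusted p = 0.0562 to 0.12). CDKN2A, the target of BMI1, was at 49.8 and 48.9 CPM in HT29 2D and 3D and at 28.4 and 32.6 CPM in HCT116 (adjusted p = 0.961 and 0.434).

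Of 4 tested Musashi relatives and targets, 1 rose and 1 fell in HT29, 2 rose in LS513, and 1 rose in HCT116 and in LS174T. Over all tested genes 21.1%, 13.7%, 16.8% and 13.1% rose in these lines, and 19.6%, 9.9%, 12.3% and 9.15% fell. CDKN1A, the p21 inhibitor of the cell cycle and a Musashi target, was the largest change in every line, from 5.72 to 25.7 CPM in HT29 (adjusted p = 6.38e-06), 61.6 to 120 CPM in LS513 (adjusted p = 0.00753), 213 to 361 CPM in HCT116 (adjusted p = 0.025) and 155 to 285 CPM in LS174T (adjusted p = 0.0159). In HCT116 it missed the threshold without any 1 of the 6 libraries (adjusted p = 0.0552 to 0.0811) and in LS174T without 2D replicate 2, 2D replicate 3 or 3D replicate 2 (adjusted p = 0.0578 to 0.124). MSI2, the paralog of MSI1, was present in every group at 88.7 to 147 CPM and did not change in any line by the test. In the SOX family other than SOX9, 1 of 6 tested genes changed, SOX4, which fell in LS513 from 158 to 97.2 CPM (adjusted p = 0.00451).

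**Figure D5:**
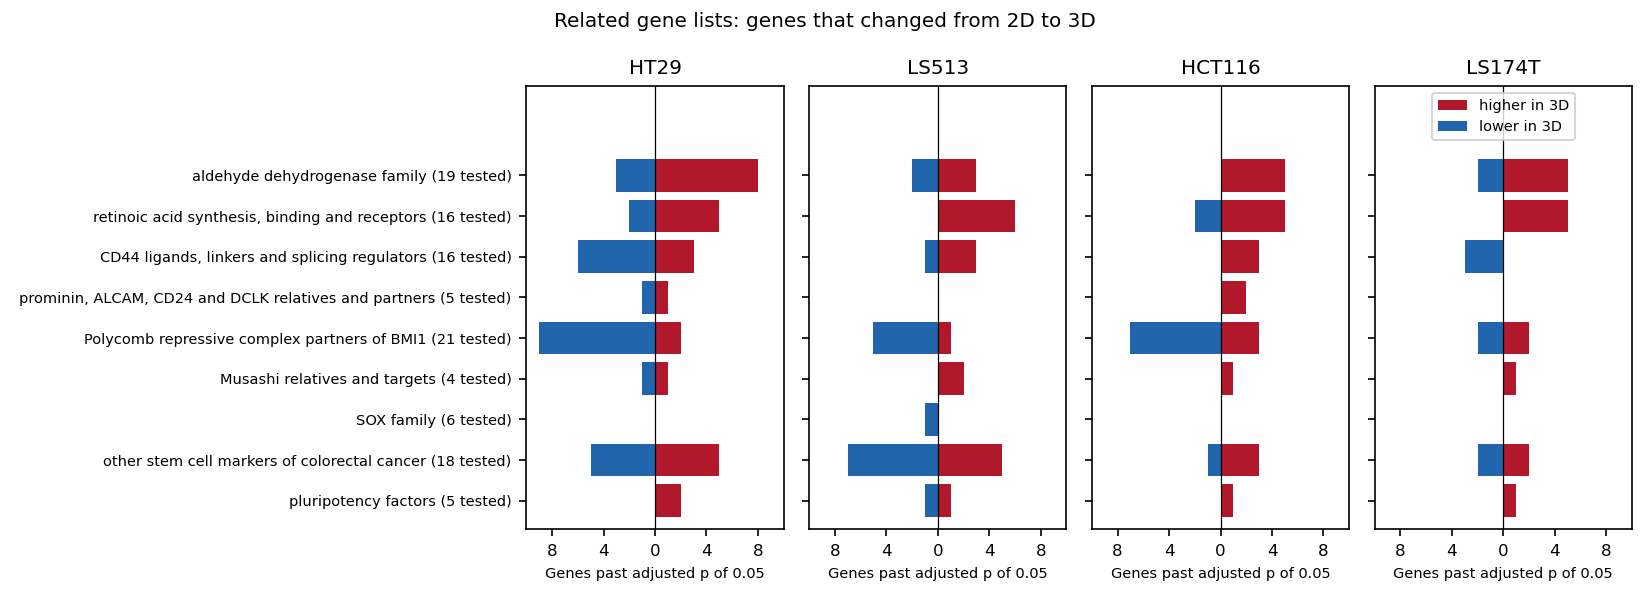
Number of tested genes in 9 related lists that were higher (red, to the right) or lower (blue, to the left) in 3D at an adjusted p of 0.05, in each line. The Polycomb bars reach 9 genes lower in HT29 and 7 in HCT116, and the aldehyde dehydrogenase bars 8 genes higher in HT29, where all tested genes were 21.1% higher and 19.6% lower in HT29 and 16.8% higher and 12.3% lower in HCT116.

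Other stem cell markers of CRC were likewise divided. Of 18 tested genes, 5 rose and 5 fell in HT29, 5 rose and 7 fell in LS513, 3 rose and 1 fell in HCT116, and 2 rose and 2 fell in LS174T. Over all tested genes 21.1%, 13.7%, 16.8% and 13.1% rose in these lines, and 19.6%, 9.9%, 12.3% and 9.15% fell. In LS513 4 fell without 3D replicate 2. HOPX, a marker of slow-cycling crypt cells, rose in HT29 from 0.123 to 1.13 CPM (adjusted p = 3.49e-04), and SMOC2, a crypt base gene, fell in LS513 from 1.27 to 0.141 CPM (adjusted p = 1.57e-06). OLFM4, a crypt base stem cell gene, rose in LS174T from 75.2 to 290 CPM (adjusted p = 0.00857), which DESeq2 did not call (adjusted p = 0.138). Of 5 tested pluripotency factors, 2 rose in HT29, 1 rose and 1 fell in LS513, and 1 rose in HCT116 and in LS174T. KLF4, a factor of both pluripotent and differentiating epithelial cells, was among the risers in each line, at 4.99 to 11.7 CPM in HT29, 23.9 to 55.5 CPM in LS513, 21.0 to 57.8 CPM in HCT116 and 34.9 to 76.9 CPM in LS174T (adjusted p = 2.13e-05, 1.15e-05, 9.81e-07 and 4.05e-05). TDGF1, a coreceptor of Nodal, fell in LS513 from 6.41 to 2.75 CPM (adjusted p = 0.00105).

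Markers of colorectal epithelium and of tuft cells moved with growth beside these genes. Of all tested genes, 21.1% were higher in 3D in HT29, 16.8% in HCT116, 13.7% in LS513 and 13.1% in LS174T. Lower in 3D were 19.6%, 12.3%, 9.9% and 9.15% in the same order of lines. Of the 12 epithelial markers, 8 rose and none fell in LS513, 7 rose and 1 fell in HT29, 5 rose and none fell in LS174T, and 4 rose and none fell in HCT116. Their summed level ranged over 15454 to 18470 CPM in HT29 2D and 17050 to 17409 CPM in 3D, 11483 to 11884 and 15786 to 17866 CPM in LS513, 3573 to 4611 and 5473 to 6052 CPM in HCT116, and 3769 to 5210 and 4881 to 7131 CPM in LS174T. Of 7 tested tuft cell markers, 4 rose in LS513 and in HCT116, 3 in HT29 and 2 in LS174T, and none fell. Without LS513 2D replicate 2 the count in LS513 was 2, and without HT29 3D replicate 4 that in HT29 was 5. Their sum ranged over 35.6 to 44.5 CPM in HT29 2D and 64.1 to 80.9 CPM in 3D, 8.06 to 12.9 and 16.7 to 22.7 CPM in LS513, 9.11 to 9.69 and 18.2 to 36.3 CPM in HCT116, and 5.56 to 6.96 and 5.53 to 6.30 CPM in LS174T. IL25 and HPGDS, both defining tuft cell genes, were at 0 in every library, and DCLK1 was not detected. The part of these markers in the results was not tested.

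Lists for other cell types were counted beside the 21.1% of all tested genes that were higher in HT29, 16.8% in HCT116, 13.7% in LS513 and 13.1% in LS174T. Of 5 tested leukocyte markers, 3 rose in HT29, 2 each in LS513 and LS174T, and 1 in HCT116, with CD3E at 0 in every library. The sum of the leukocyte list was at most 96.4 CPM outside HT29, and LYZ, which fills it in HT29, is also made by Paneth cells. Of 3 tested fibroblast markers, 1 (FAP, a membrane protease) fell in LS513 and none passed the test elsewhere. Of 4 tested endothelial markers, 1 rose in HT29, LS513 and HCT116 and none in LS174T, with sums of at most 3.19 CPM. Of 2 tested neural and glial markers, 1 rose in HT29 and in HCT116, with sums of at most 3.92 CPM.

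The genes most like each marker were found by Pearson's r over the 8 group means of log2(CPM + 1), among 16627 genes. These r values are descriptions, since the groups of a line share the line and many of the genes would reach a high r over 8 points. PROM1 was closest to ATP2A3 (r = 0.978), a calcium pump of the endoplasmic reticulum, and to TP73 (r = 0.977), a transcription factor of the p53 family. CD44 was closest to SRR (r = 0.992) and THOC3 (r = 0.990), ALCAM to FAM160A1 (r = 0.992) and CRIM1 (r = 0.988), and CD24 to AGAP3 (r = 0.996) and RASEF (r = 0.996). ALDH1A1 was closest to SCCPDH (r = 0.996) and WARS2 (r = 0.994), and ALDH1A3 to ARAP3 (r = 0.999) and AL158212.3 (r = 0.997). SOX9 was closest to CASD1 (r = 0.993) and TTC3 (r = 0.992), BMI1 to PPP2R5E (r = 0.978) and LUC7L (r = 0.974), and MSI1 to OSBP2 (r = 0.997) and MCOLN2 (r = 0.996). ARAP3, the gene most like ALDH1A3, ranged from 0.0774 CPM to 30.4 CPM, its highest group being HCT116 2D. OSBP2, the gene most like MSI1, also had its highest mean in HCT116 2D, at 37.9 CPM.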

How the data were processed

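RNA was measured in 24 libraries of 4 CRC cell lines grown in 2D or 3D, as polyA-selected stranded messenger RNA read as 75-base single reads. The authors trimmed reads with Trim Galore 0.4.1, aligned them with STAR, removed reads that aligned more than once, and deposited raw counts per gene from HTSeq 0.5.3, 1 file per technical replicate. The labels name hg19 and the methods Ensembl 91, and the overlap and strand options of the counting are not given in the sources used here. Counts of the 8 technical replicates of each library (7 in 1 HT29 3D library, whose technical replicate d was not analysed here) were summed, so that technical replicates do not count as n.

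Groups were taken from the labels. The counts were fitted in R 4.3.3 with edgeR 4.0.16 (quasi-likelihood test, TMM scaling, all 8 groups in 1 model, filter on low counts, 19387 genes kept), with Benjamini-Hochberg adjustment over all genes kept. Growth was compared within each line, lines within each growth condition, and the growth effect between lines by an interaction test. Ratios within a library used 1 added count and a two-sided exact permutation test (scipy 1.17.1). Gene names, lengths and positions came from GENCODE 29, which held 57980 of the 58243 identifiers, and promoters from RefSeq.

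The members and the related lists were chosen with earlier results of these data known. For each list and line, the text names the gene with the largest log2 fold change in either direction among those past an adjusted p of 0.05 and at or above 1 CPM in the higher group, with close paralogs of the members. A gene that this rule names in HCT116 is not reported here. On simulated counts of the HT29 comparison, 178 of 200 genes given a log2 change of 1 were recovered among 19111 genes, with 4 false calls. Only well-counted genes were changed, no other gene differed with growth, and the spread of each gene followed the trend over genes. In the real HT29 comparison 40.7% of tested genes passed, so these rates need not hold there. Alternatives were DESeq2 1.42.0 and its size factors, no filter on low counts, a replicate block, each line fitted alone, each library left out in turn, technical replicate d left out of every library, a pseudocount of 0.5 counts in ratios, the counts of COMMD3-BMI1 added to BMI1 and the study's log2 cutoffs of -0.5 and 1.5. Depth was 18723942 to 34277421 counts per library, and 3 counts corresponded to 0.0875 to 0.160 CPM.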

Additional observations from a re-analysis of the deposited data

Results flagged for a closer look

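The growth effect differed between the 4 lines, by the interaction test of edgeR with Benjamini-Hochberg adjustment, for 5 of the 9 tested markers, beside 17.1% of all tested genes. The adjusted p was 1.88e-05 for PROM1, which was higher in 3D in HT29 and lower in LS513, and 4.89e-05 for ALCAM, which was lower in 3D in HT29 and LS174T and higher in LS513. It was 8.36e-04 for ALDH1A3, which fell in HT29, and 0.00154 for CD44, which was higher in 3D in HT29 and LS174T and lower in LS513. It was 0.0146 for ALDH1A1, which rose in LS174T.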

How the results depend on the processing

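The number of markers called in LS513 was 4, and it was 2 with a replicate block, 1 with the study's log2 cutoffs and between 1 and 4 when a library was left out. In HCT116 it was 1, and it was 2 with DESeq2 size factors, with DESeq2 and with the 6 libraries of the line alone, and between 1 and 2 when a library was left out. In LS174T it was 3, with 1 under the study's cutoffs and between 1 and 3 when a library was left out. It stayed between 5 and 6 in HT29, and the interaction count between 4 and 5, when a library was left out. The cause was not tested, apart from the stricter cutoffs and the smaller number of libraries.

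Some log2 fold changes that had not passed the test changed sign when 1 library was left out. Over the libraries left out, CD24 in LS174T ranged from -0.20 to 0.047, above 0 without 2D replicate 3 or 3D replicate 2. ALDH1A1 in LS513 ranged from -0.066 to 0.21 and ALDH1A3 in LS513 from -0.30 to 0.27, both below 0 without 2D replicate 2 or 3D replicate 3. SOX9 in HCT116 ranged from -0.024 to 0.076, below 0 without 2D replicate 3. Without the filter on low counts, CD44 lost its call in LS513 (adjusted p = 0.118) and LS174T (adjusted p = 0.106).

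Counts of called genes in the related lists that were 1 or 2 also moved by more than 1.5 times for several left-out libraries.

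No pairing of the samples by replicate number was shown. The deviations of the 11 same-numbered pairs correlated between -0.209 and 0.216, and 6 of 22 libraries correlated best with their own number. With 3 libraries per group these correlations cannot exclude a pairing. Under the replicate block the calls of CD44 in LS513 (adjusted p = 0.0837) and LS174T (adjusted p = 0.0797), CD24 in LS513 (adjusted p = 0.0565) and PROM2 in HT29 (adjusted p = 0.124) were lost. Depth limits PROM1 in LS174T, ALDH1A1 in HCT116, MSI1 in HT29 and LS174T, and DCLK1, whose counts lay at or around the floor of 3 counts, and ALDH1A3 in LS174T.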
